A study of Homo sapiens with 6 samples.

Results

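The 35 genes described here encode the enzymes and transporters that turn glucose into lactate and the kinases that close pyruvate dehydrogenase. They also encode the oxygen-regulated factors HIF1A and EPAS1, their prolyl hydroxylases, and well-known hypoxia targets. They were chosen as a list of symbols and matched to the Ensembl identifiers of the count tables, which hold 62696 gene rows. All 35 were found, and 32 had enough reads to be tested. The glucose transporter SLC2A3 (59 reads over all 6 libraries), the vasodilator peptide gene ADM (41 reads) and the carbonic anhydrase CA9 (4 reads) had too few. RNA was sequenced from C4-2, an established line of castration-resistant human prostate cancer cells grown in RPMI1640 with fetal bovine serum and given no treatment. The vector group (genotype labelled WT, 3 libraries) carried the control vector, and the knockout group (3 libraries) had CDK12, a kinase of RNA polymerase II, disrupted with CRISPR-Cas9. The labels do not name the guide, the number of edited clones or separate cultures, so p-values speak only to the spread between libraries, which may be technical, and any other difference between the cell lines would look the same as loss of CDK12.

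Glycolysis splits glucose into pyruvate in the cytosol. Pyruvate is either reduced to lactate by lactate dehydrogenase and exported by monocarboxylate transporters, or oxidised in mitochondria by pyruvate dehydrogenase, which the PDK kinases switch off. When oxygen is short, the prolyl hydroxylases stop marking HIF-1α and HIF-2α for destruction, and the stabilised factors bind a short core sequence in the promoters of many of these genes.

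The promoters of the list were examined for the core sequence that HIF binds. RefSeq start windows of 300 bases (250 before and 50 after an annotated start, GRCh38.p14) were found for 30 of the 35 members, 57 windows in all, and were searched on both strands for the hypoxia response cores ACGTG and GCGTG. The palindrome CACGTG holds ACGTG on both strands and counts on each. Either core was present in 38 of the 57 member windows (66.7%) and in 48.4% of all 35116 windows of the same length. ACGTG was in 38.6% of member windows against 21.4% of all windows, and GCGTG in 42.1% against 36.5%. Member windows were also richer in G and C, with a median of 68.7% against 58.7%. LDHA held 5 distinct ACGTG matches in its 2 windows, HK2 held 6, and PGAM1 and EGLN3 held neither core in theirs. SLC2A3, PFKFB2, SLC16A1, VEGFA and BNIP3L had no entry. A match describes letters, not a bound site.

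The following stretches surround the ACGTG nearest before a RefSeq start (GCGTG where no ACGTG lies before it) in the members that passed the test without knockout library 2, and in CA9, a classical HIF target. They are written 5′ to 3′ on the + strand, the strand of all these genes, with the core in capitals. CACGT is ACGTG read on the other strand.
TPI1 (chr12:6868076-6868104): cgtgcgccgccgCACGTagccccagactc
LDHA (chr11:18394478-18394506): cgtgggttcccgCACGTccgccggccccc
SLC16A3 (chr17:82228975-82229003): cgtgcgcgggggACGTGccgcgccagcga
PDK3 (chrX:24465213-24465241): cgcgcgccgcgtACGTGcagcaaccgact
HIF1A (chr14:61695297-61695325): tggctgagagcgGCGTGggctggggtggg
CA9 (chr9:35673898-35673926): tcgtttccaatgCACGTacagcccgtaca

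The core of CA9 began 18 bases before its start and that of TPI1 17 bases before a start, while those of SLC16A3, PDK3 and LDHA began 55, 61 and 73 bases before. In the GENCODE 29 models, the LDHA and CA9 stretches lay in an exon of the same gene, the SLC16A3 stretch in an intron, and the HIF1A stretch outside the gene. Of the 29 bases, 5 of TPI1 and 21 of PDK3 were exonic. The genes span 6867119 to 6870948 on chromosome 12 (TPI1), 18394388 to 18408425 on chromosome 11 (LDHA), 82228397 to 82261129 on chromosome 17 (SLC16A3), 24465221 to 24541862 on chromosome X (PDK3), 61695513 to 61748259 on chromosome 14 (HIF1A) and 112911847 to 112957013 on chromosome 1 (SLC16A1), all on GRCh38.

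Depth ran from 24660798 to 30732841 reads a library, with 16617644 to 21590817 of them assigned to genes. Knockout library 2 stood apart. Across genes its log2 levels correlated with those of the other libraries at 0.916 to 0.950, against 0.977 to 0.990 among the rest, and its TMM scaling factor was 0.737 against 1.04 to 1.10. Leaving it out lowered edgeR's biological coefficient of variation from 24.2% to 8.0%. Tests were therefore run with all 6 libraries and again without it. CDK12 RNA averaged 55.1 ± 6.35 CPM in vector and 58.1 ± 2.35 CPM in knockout libraries (SD, n = 3 each), and whole-gene counts do not check an edit of the reading frame. All 11 prostate line markers were detected, with summed levels of 9642 to 9817 CPM in vector libraries and of 8051, 10968 and 8070 CPM in knockout libraries 1 to 3. Summed fibroblast markers lay at 22.7 to 24.7 and 25.5 to 32.5 CPM and endothelial markers at 5.77 to 6.40 and 7.36 to 11.3, in vector and knockout libraries respectively. Most of these sums came from COL1A1 and VWF, while DCN, PECAM1, TEK and CD3E were at 0 in every library. None of the 7 immune markers had enough reads to be tested. With all libraries 1 of 11 prostate line markers, SLC45A3, was called lower and no fibroblast or endothelial marker was called. Without knockout library 2, 1 prostate line marker was higher and 5 were lower (9.09% and 45.5%, against 10.2% and 8.88% of all genes). VWF was then higher and COL1A2 lower. The part of these markers in the results was not tested, and in bulk RNA fewer cells of a type and less RNA per cell cannot be told apart.

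With all 6 libraries, no member passed edgeR's quasi-likelihood test at an adjusted p under 0.05 in either direction. Among all 15783 genes tested 0.418% were higher and 0.177% lower in the knockout. At an unadjusted p under 0.05, no member was higher and 4 (12.5%) were lower: HIF1A, PDK1, PDK3 and SLC16A3. The shares over all genes were 13.0% and 8.69%. DESeq2 and limma-voom also called 0 members. Over all genes DESeq2 called 3.95% higher and 2.26% lower, and limma-voom 0.418% and 0.247%. The median log2 fold change (knockout over vector) was -0.12 over the 32 members and 0.00 over all genes, with 13 members above 0 and 19 below.

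Without knockout library 2, 1 member rose, the triose phosphate isomerase TPI1, where 10.2% of all 16339 genes did. The lactate dehydrogenase LDHA, the monocarboxylate transporters SLC16A1 and SLC16A3, the kinase PDK3 and the oxygen-regulated subunit HIF1A fell. These were 5 of 32 members, where 8.88% of all genes fell. At an unadjusted p under 0.05 the counts were 5 higher and 7 lower (15.6% and 21.9% of members), against 16.0% and 15.7% of all genes. The median of the members was 0.03 and that of all genes -0.01. By TMM-scaled CPM, vector and knockout ranges of all 3 libraries a group did not overlap in 14 members. Of these 6 were higher in the knockout (GPI, PFKFB4, TPI1, ENO1, EGLN3 and BNIP3) and 8 lower (HK2, PFKP, LDHA, SLC16A1, SLC16A3, PDK1, PDK3 and HIF1A). Over all genes, 20.4% were so separated upward and 19.0% downward. When reads are divided by those assigned to genes, with no TMM factor, PFKFB4, EGLN3 and BNIP3 overlap between groups. The other members named as separated stay apart.

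**Figure D1:**
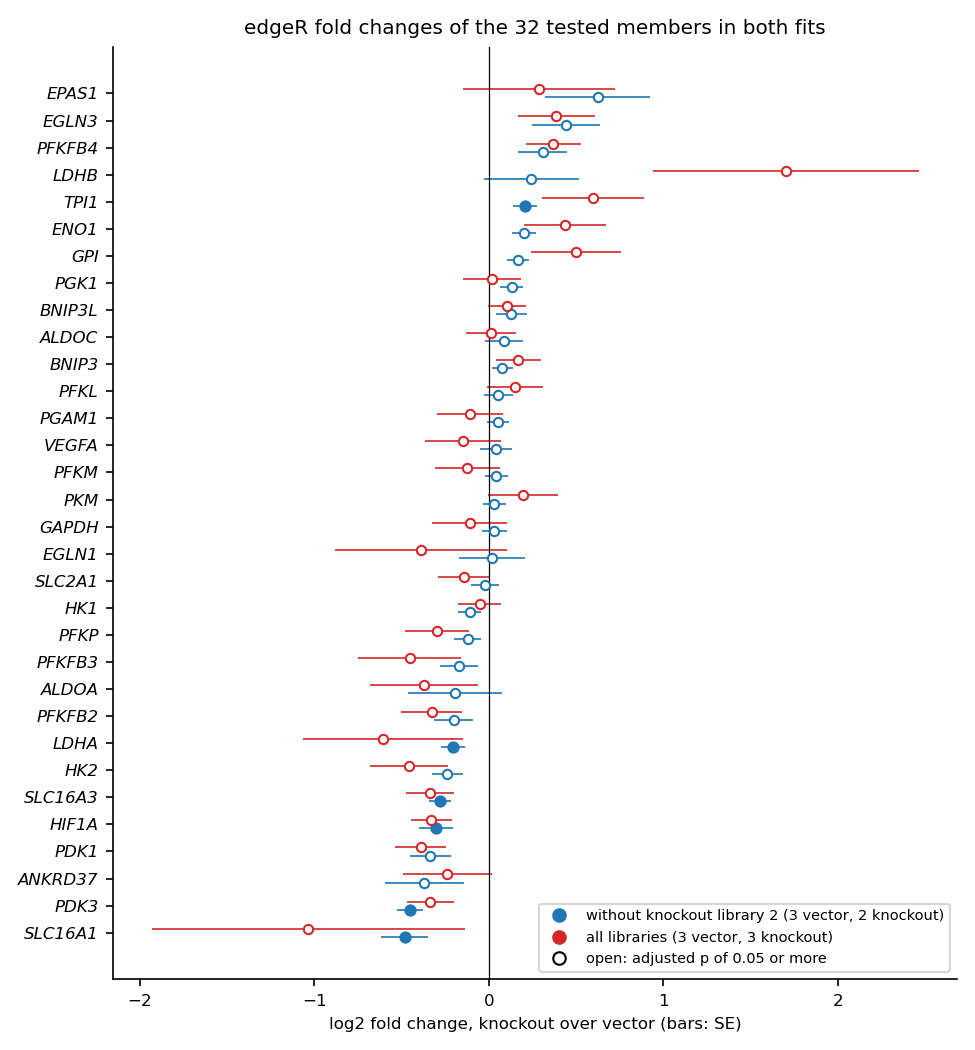
Log2 fold change of the 32 tested members, knockout over vector, with SE as bars, from all 6 libraries (red) and without knockout library 2 (blue); filled points have an adjusted p under 0.05. No red point is filled, and the filled blue points are TPI1 above 0 and LDHA, SLC16A1, SLC16A3, PDK3 and HIF1A below it.

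Knockout library 2 set most of the spread among members. Its distance from the vector mean on the log2 scale, after adding 0.1 CPM, was the largest of the 3 knockout libraries in 27 of 32 members (84.4%), against 75.4% of all genes. In it 7 members lay more than 1 log2 unit away: LDHB and TPI1 above, and HK2, PFKFB3, LDHA, SLC16A1 and EGLN1 below. That is 21.9% of members, against 31.2% of all genes. No member lay so far in knockout libraries 1 or 3, where 842 and 830 of all 15783 genes did. The median absolute distance of the members was 0.19, 0.52 and 0.16 in knockout libraries 1, 2 and 3, and that of all genes 0.22, 0.66 and 0.23. The 3 knockout libraries shared a side of the vector mean in 20 of 32 members (62.5%), close to the 63.5% of all genes.

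**Figure D2:**
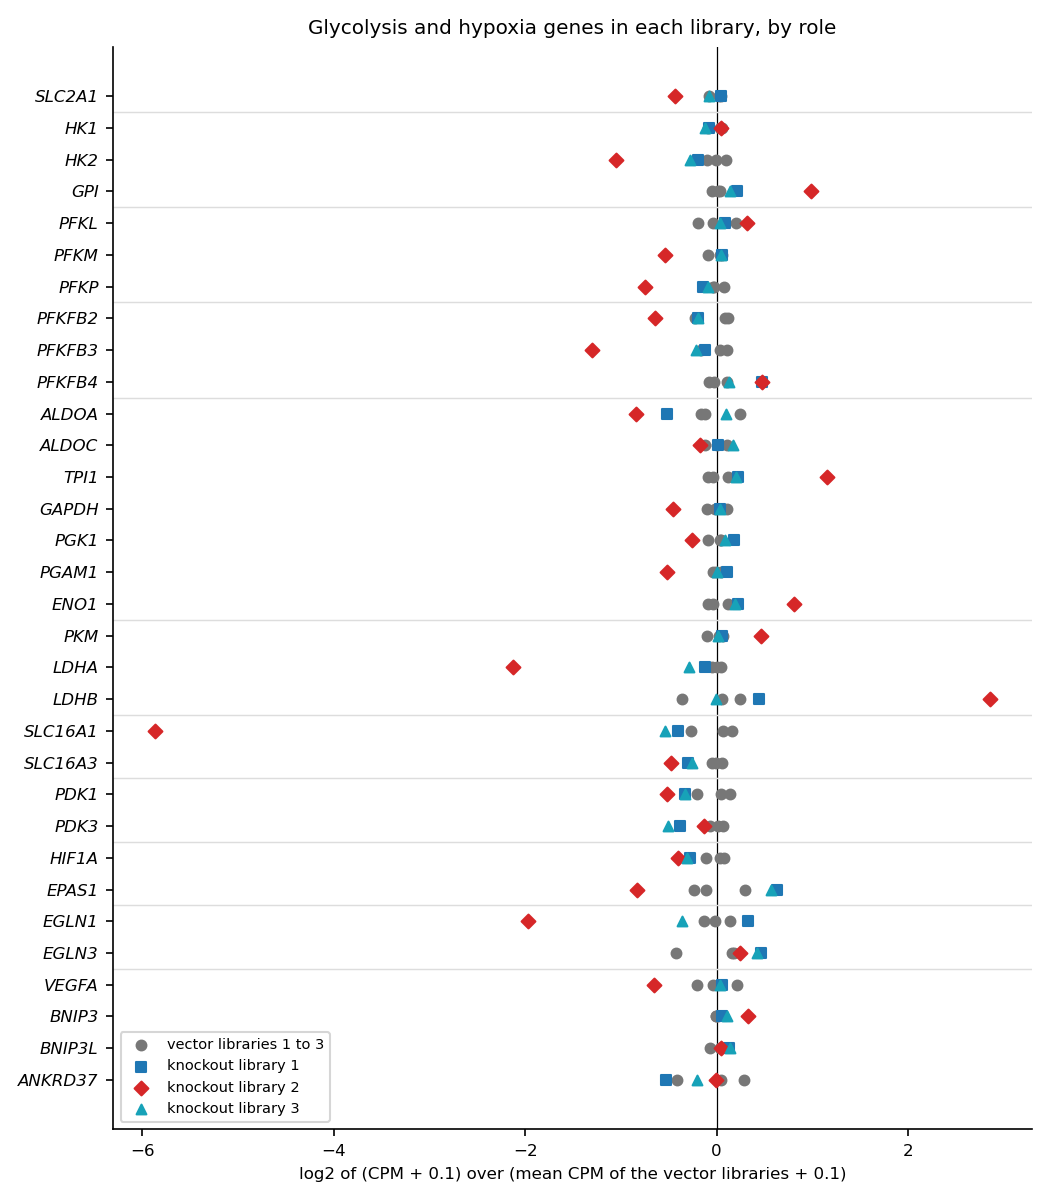
Log2 of each library's CPM over the vector mean (0.1 CPM added to both) for the 32 tested members, ordered by role along the pathway; circles are vector libraries and the other symbols the 3 knockout libraries. Knockout library 2 (diamonds) lies farthest from 0 in 27 members, with SLC16A1 at -5.87 and LDHB at 2.86.

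Glucose entry showed no called change. SLC2A1, the basal glucose transporter GLUT1, had the highest level per kilobase of exon among the 2 glucose transporters, 12.6 CPM per kb in vector libraries. It stood at 61.5, 60.6 and 56.2 CPM in vector libraries and at 61.4, 44.0 and 56.1 CPM in knockout libraries 1 to 3. The groups overlapped, and the log2 fold change was -0.14 ± 0.15 with all libraries (SE, edgeR test, adjusted p = 0.539) and -0.02 ± 0.08 without knockout library 2 (edgeR test, adjusted p = 0.881). SLC2A3, the high-affinity GLUT3, had 7 to 16 reads a library.

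Hexokinases trap glucose as glucose 6-phosphate, and phosphoglucose isomerase (GPI) turns it into fructose 6-phosphate. HK2, the hexokinase most often raised in tumours, stood at 58.3, 54.2 and 50.5 CPM in vector and at 47.6, 26.2 and 44.9 CPM in knockout libraries, without overlap. Its fold change did not pass, at -0.46 ± 0.22 with all libraries (edgeR test, adjusted p = 0.265) and -0.24 ± 0.09 without knockout library 2 (edgeR test, adjusted p = 0.0661). HK1, the housekeeping form, ranged from 202 to 230 CPM over all libraries. GPI, the highest of the 3 at 78.6 CPM per kb in vector libraries, stood at 845, 861 and 813 CPM there and at 970, 1664 and 925 CPM in the knockout. All 3 knockout libraries lay above the vector libraries, yet GPI did not pass either (0.50 ± 0.26, edgeR test, adjusted p = 0.277, and 0.17 ± 0.06, edgeR test, adjusted p = 0.0663 without knockout library 2). In that second fit GPI passed in 9 of 16 alternatives, with adjusted p from 9.04e-13 to 0.482.

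Phosphofructokinase 1 commits sugar to glycolysis and is built from PFKL, PFKM and PFKP subunits. PFKM and PFKL were nearly level at 30.1 and 29.7 CPM per kb in vector libraries, and PFKP lay below them at 13.8. PFKM stood at 229, 207 and 226 CPM in vector and at 228, 151 and 227 CPM in knockout libraries, so that library 2 alone lay outside the vector range. No subunit passed in either fit, with log2 fold changes from -0.30 (PFKP) to 0.15 (PFKL) with all libraries and from -0.12 to 0.05 without knockout library 2. The PFKFB enzymes set fructose 2,6-bisphosphate, the main activator of phosphofructokinase 1. PFKFB3, the most abundant of them at 5.03 CPM per kb, stood at 33.2, 27.5 and 31.5 CPM in vector and at 28.3, 12.4 and 26.5 CPM in knockout libraries. PFKFB4 had the opposite order, at 11.8, 11.3 and 12.9 CPM against 16.7, 16.7 and 13.1 CPM, without overlap. Neither passed: PFKFB3 had -0.45 ± 0.30 (edgeR test, adjusted p = 0.354) and PFKFB4 0.37 ± 0.16 (edgeR test, adjusted p = 0.233) with all libraries. Without knockout library 2, PFKFB3 had -0.17 ± 0.11 (edgeR test, adjusted p = 0.286) and PFKFB4 0.31 ± 0.14 (edgeR test, adjusted p = 0.139).

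Among the enzymes from aldolase to enolase, 1 of 7 rose without knockout library 2 (14.3%, where 10.2% of all genes did) and none fell. TPI1 interconverts the triose phosphates made by aldolase. It stood at 1030, 1150 and 988 CPM in vector libraries and at 1234, 2348 and 1210 CPM in knockout libraries, so all knockout libraries were higher and library 2 was far above the rest. The log2 fold change was 0.60 ± 0.29 with all libraries (edgeR test, adjusted p = 0.265), and TPI1 rose by 0.21 ± 0.07 without knockout library 2 (edgeR test, adjusted p = 0.0444). That call was lost when vector library 1 or 3 or knockout library 1 or 3 was also left out (edgeR test, adjusted p = 0.161, 0.115, 0.304 and 0.218), with DESeq2 size factors in edgeR (0.0556) and with an offset for transcript length and GC content (0.275). ENO1, the main enolase, showed the same order, with 1764, 1959 and 1691 CPM in vector and 2112, 3166 and 2054 CPM in knockout libraries. Its fold change of 0.20 ± 0.07 without knockout library 2 lay just outside the threshold (edgeR test, adjusted p = 0.0506, ranging from 1.05e-15 to 0.352 over the alternatives). PGK1 and PGAM1, which make ATP and shift the phosphate group, overlapped between groups at 422 to 570 and 276 to 427 CPM.

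GAPDH, the dehydrogenase that yields NADH and a common reference gene, had the highest level of all members per kilobase, 667 CPM per kb. By the unstranded counts it stood at 1961, 2149 and 1856 CPM in vector and at 2042, 1445 and 2039 CPM in knockout libraries, with a log2 fold change of -0.11 ± 0.21 (edgeR test, adjusted p = 0.750). The direction depended on how reads were assigned. Of its exonic bases, 14.2% overlap the opposite-strand gene AC006064.4 in GENCODE 29, and reads there are left out of an unstranded count. Counting each strand separately and adding both gave 2.29 to 2.31 times as many GAPDH reads in vector libraries and 2.63, 6.61 and 2.62 times as many in knockout libraries 1 to 3. With these sums GAPDH stood at 3820, 4232 and 3614 CPM in vector and at 4528, 7902 and 4520 CPM in knockout libraries, and the fold change became 0.54 ± 0.29 (edgeR test, adjusted p = 0.293). Without knockout library 2 it was 0.21 ± 0.07 with the sums (edgeR test, adjusted p = 0.0350) and 0.03 ± 0.07 unstranded (edgeR test, adjusted p = 0.800). The 2 stranded columns had nearly equal sums, so overlap reads of GAPDH and its partner cannot be told apart.

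**Figure D3:**
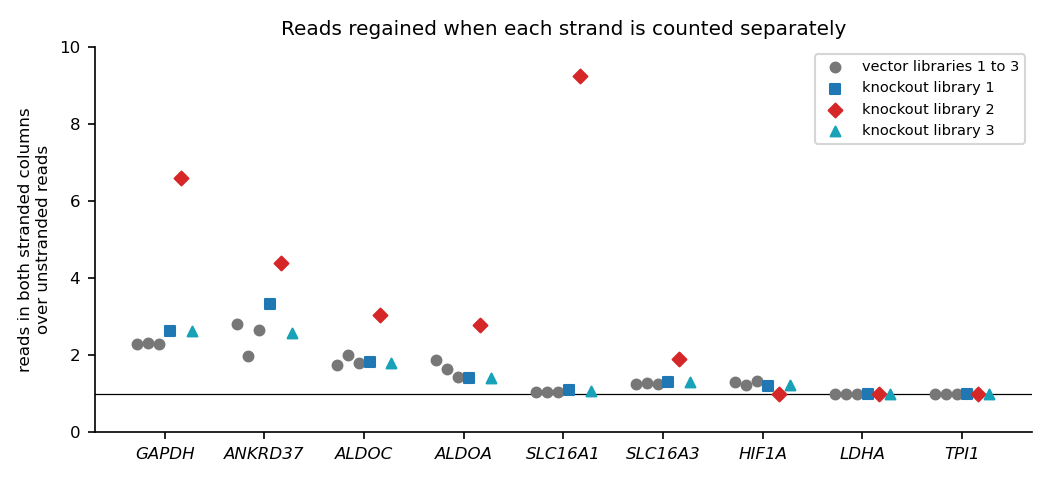
Reads of a gene summed over both stranded columns divided by its unstranded reads, for 9 members in each library; 1 (line) means that no reads are regained. LDHA and TPI1 stay at 1, whereas GAPDH reaches 6.61 and SLC16A1 9.25 in knockout library 2.

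The 2 aldolases were affected too. ALDOA, the widespread form, shares 42.3% of its exonic bases with the same-strand gene AC093512.2, and its 1.76 to 3.85 CPM leave out reads from there. ALDOC overlaps an opposite-strand gene over 10.1% of its exonic bases, and its sums over both strands were 1.75 to 2.02 times the unstranded counts in vector libraries and 3.04 times in knockout library 2. Neither aldolase passed in either fit under any alternative, and ALDOC's log2 fold change moved from 0.01 to 0.22 with the sums.

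The largest distances in knockout library 2 lay at the end of the pathway, where pyruvate becomes lactate and leaves the cell. In knockout libraries 1 and 3 the largest was that of EPAS1, 0.63 and 0.57. PKM, which makes pyruvate, was the most abundant of its step at 182 CPM per kb and overlapped between groups, at 1590, 1640 and 1462 CPM against 1629, 2152 and 1582 CPM. LDHA favours the reduction of pyruvate to lactate. It stood at 443, 415 and 429 CPM in vector and at 395, 98.0 and 352 CPM in knockout libraries, all below the vector range. LDHA had a log2 fold change of -0.61 ± 0.46 with all libraries (edgeR test, adjusted p = 0.407). With that library left out it fell by 0.21 ± 0.07 on the log2 scale (edgeR test, adjusted p = 0.0374). Leaving out any further library but vector library 2 ended the call (vector 1 and 3, knockout 1 and 3: edgeR test, adjusted p = 0.179, 0.0747, 0.0594 and 0.522), with upper quartile factors (0.0646) and with the length and GC offset (0.0932).

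LDHB, the heart-type subunit that favours the reverse reaction, was low at 2.00, 3.08 and 2.69 CPM in vector libraries and at 3.54, 19.4 and 2.59 CPM in knockout libraries. The difference lay in knockout library 2, where 308 reads, against 39 to 75 in the others, made 7.48 times the vector mean. The log2 fold change was 1.70 ± 0.76 with all libraries, the largest of any member (edgeR test, adjusted p = 0.241), and 0.24 ± 0.27 without knockout library 2 (edgeR test, adjusted p = 0.590). A same-strand gene, AC010197.2, covers 33.4% of LDHB's exonic bases, so the counts leave out reads there. In knockout library 2 the opposite distances of LDHA (-2.13) and LDHB (2.86) came together with the lowest level of SLC16A1.

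**Figure D4:**
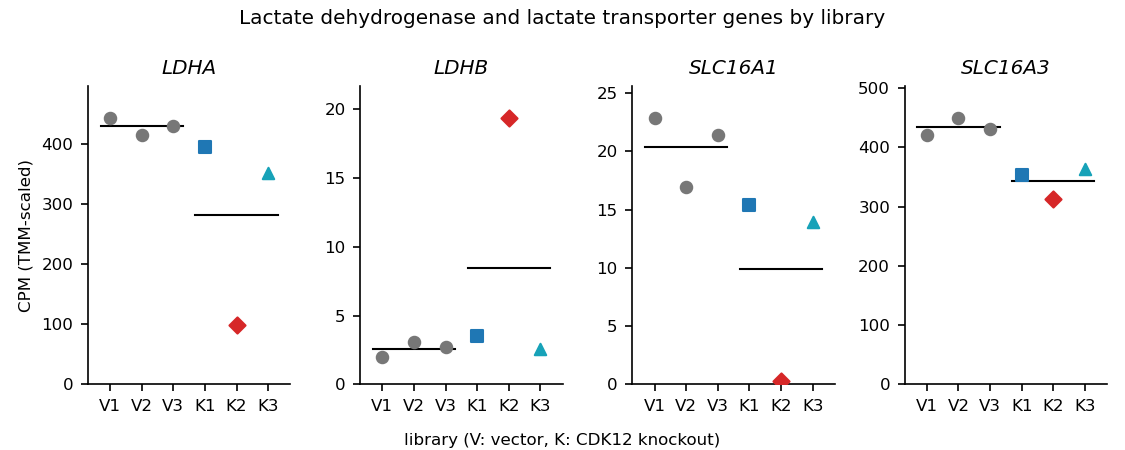
CPM of the lactate dehydrogenase subunits LDHA and LDHB and the transporters SLC16A1 and SLC16A3 in each vector (V) and knockout (K) library, with group means as lines and axes from 0. Knockout library 2 is at 98.0 CPM for LDHA, 19.4 for LDHB and 0.252 for SLC16A1, while SLC16A3 separates the groups at 312 to 364 against 421 to 450 CPM.

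Both lactate transporters fell without knockout library 2. SLC16A1 encodes MCT1, a transporter that carries lactate either way, and stood at 22.9, 17 and 21.4 CPM in vector and at 15.4, 0.252 and 14.0 CPM in knockout libraries. Its log2 fold change was -1.04 ± 0.90 with all libraries (edgeR test, adjusted p = 0.466). In the other 5 libraries SLC16A1 fell by 0.48 ± 0.14 (edgeR test, adjusted p = 0.0174), and leaving out vector 1, vector 3, knockout 1 or knockout 3 ended the call (edgeR test, adjusted p = 0.0953, 0.0696, 0.0634 and 0.193). Knockout library 2 held 4 unstranded reads of SLC16A1 against 270 to 447 in the others, a vector mean 81.1 times its level (exact 95% Poisson interval 31.7 to 298, counting error only). Summed over the 2 stranded columns it held 37 reads against 290 to 466, and the vector mean was 9.43 times its level (6.84 to 13.4). SLC16A1 overlaps SLC16A1-AS1 on the opposite strand over 3.29% of its exonic bases, and reads of the pair cannot be told apart there.

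SLC16A3 encodes MCT4, the exporter of highly glycolytic cells and the more abundant of the pair at 48.3 CPM per kb against 3.84 for SLC16A1. It stood at 421, 450 and 432 CPM in vector and at 354, 312 and 364 CPM in knockout libraries, without overlap. The log2 fold change was -0.34 ± 0.14 with all libraries (edgeR test, adjusted p = 0.224), and SLC16A3 fell by 0.28 ± 0.06 without knockout library 2 (edgeR test, adjusted p = 0.00370). The call was lost without knockout library 1 or 3 (edgeR test, adjusted p = 0.0978 and 0.0671) and held without each vector library. With sums of the stranded columns, which take in the overlap with CSNK1D on the opposite strand, knockout library 2 stood at 492 CPM, above the vector libraries at 451, 490 and 463 CPM, while knockout libraries 1 and 3 stayed below at 388 and 400 CPM. The fold changes were then -0.13 ± 0.16 with all libraries (edgeR test, adjusted p = 0.587) and -0.25 ± 0.06 without knockout library 2 (edgeR test, adjusted p = 0.00625).

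The pyruvate dehydrogenase kinases PDK1 and PDK3 were lower in every knockout library. PDK3, the more abundant at 20.5 CPM per kb, stood at 102, 96.3 and 106 CPM in vector and at 77.6, 92.4 and 71.2 CPM in knockout libraries. Here knockout library 2 was the closest to the vector range by TMM-scaled CPM. As a share of the reads assigned to genes, with no TMM factor, it was the farthest. The log2 fold change was -0.34 ± 0.13 with all libraries (edgeR test, adjusted p = 0.221). In the other 5 libraries PDK3 fell by 0.45 ± 0.08 (edgeR test, adjusted p = 0.000315), and it passed in all 16 alternatives of that fit, with adjusted p up to 0.0298. Its exons overlap no other gene. PDK1, the classical HIF-1 target of the pair, stood at 25.7, 21.7 and 27.6 CPM in vector and at 19.9, 17.4 and 19.9 CPM in knockout libraries, without overlap. Its fold change of -0.34 ± 0.12 without knockout library 2 did not pass (edgeR test, adjusted p = 0.0538, ranging from 0.000150 to 0.254 over the alternatives). With all libraries PDK1 had -0.39 ± 0.15 (edgeR test, adjusted p = 0.215).

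The oxygen-regulated subunits of HIF lay on opposite sides of the vector range in knockout libraries 1 and 3. HIF1A encodes HIF-1α, whose amount is set mainly by protein stability. It stood at 38.5, 34.8 and 39.8 CPM in vector and at 31.0, 28.4 and 30.5 CPM in knockout libraries, all lower. Other genes overlap 5.14% of its exonic bases. Sums of the stranded columns gave 43.0, 36.9 and 44.7 CPM in vector and 31.5, 23.6 and 31.6 CPM in knockout libraries. With these sums HIF1A fell by 0.40 ± 0.10 without knockout library 2 (edgeR test, adjusted p = 0.00432). By the unstranded counts HIF1A had a log2 fold change of -0.33 ± 0.12 with all libraries (edgeR test, adjusted p = 0.211). Without knockout library 2 it fell by 0.30 ± 0.10 by these counts (edgeR test, adjusted p = 0.0368). Leaving out any further library but vector library 2 ended the call (vector 1 and 3, knockout 1 and 3: edgeR test, adjusted p = 0.114, 0.142, 0.167 and 0.240) and with no low-count filter (0.0525). EPAS1, which encodes HIF-2α, had 14 to 55 reads a library. It stood at 1.38, 1.51 and 2.03 CPM in vector and at 2.60, 0.881 and 2.48 CPM in knockout libraries, so libraries 1 and 3 lay above and library 2 below the vector range. Its log2 fold change was 0.29 ± 0.43 with all libraries (edgeR test, adjusted p = 0.678) and 0.62 ± 0.30 without knockout library 2, the largest there, and did not pass (edgeR test, adjusted p = 0.163).

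The prolyl hydroxylases mark both subunits for destruction. EGLN1, which encodes PHD2, the main oxygen sensor, was the higher per kilobase (1.23 CPM per kb). It stood at 9.88, 8.85 and 8.13 CPM in vector and at 11.2, 2.20 and 6.93 CPM in knockout libraries. Of these, 1 knockout library was above and 2 were below the vector range. EGLN1 had a log2 fold change of -0.39 ± 0.49 with all libraries (edgeR test, adjusted p = 0.617) and 0.02 ± 0.19 without knockout library 2 (edgeR test, adjusted p = 0.961). EGLN3, encoding PHD3 and itself a HIF target, stood at 6.35, 6.44 and 4.18 CPM in vector and at 7.84, 6.73 and 7.60 CPM in knockout libraries. The groups did not overlap in TMM-scaled CPM, but the fold change of 0.44 ± 0.20 without knockout library 2 did not pass (edgeR test, adjusted p = 0.131). With all libraries EGLN3 had 0.39 ± 0.22 (edgeR test, adjusted p = 0.305).

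None of the 4 tested hypoxia targets outside metabolism was called in either fit. BNIP3, a mitophagy receptor and the most abundant at 36.3 CPM per kb, stood at 195, 193 and 192 CPM in vector and at 202, 242 and 208 CPM in knockout libraries, without overlap (0.17 ± 0.13, edgeR test, adjusted p = 0.408, and 0.08 ± 0.06, edgeR test, adjusted p = 0.427 without knockout library 2). With library totals and no TMM factors BNIP3 had -0.03 over all libraries. VEGFA, the angiogenic growth factor, overlapped between groups, with 82.9 to 111 CPM in vector and 60.8 to 99.7 CPM in knockout libraries. BNIP3L ranged from 37.6 to 43.5 CPM over all libraries. ANKRD37 shares 35.2% of its exonic bases with UFSP2 on the opposite strand, and its log2 fold change turned from -0.24 to 0.26 with sums of the stranded columns and all libraries. CA9 had 1 read in the vector libraries and 3 in the knockout libraries, all 3 in library 2, and ADM had 5 to 10 reads a library.

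A ratio of 2 related genes within a library needs no scaling factor. The difference between groups in the log2 ratio of read counts (0.5 added to each) was computed for 12 pairs of isozymes or partners with enough reads, and 3 against 3 libraries allow an exact two-sided permutation p of 0.10 at the smallest. HK2/HK1 was lower in every knockout library, with a difference of -0.45 (exact permutation p = 0.10, adjusted over the 12 pairs 0.514), and -0.13 without knockout library 2. PFKFB4/PFKFB2 was higher in every knockout library, with a difference of 0.70 (exact permutation p = 0.10, adjusted 0.514) and 0.49 without knockout library 2. In the other 10 pairs the groups overlapped. LDHB/LDHA differed by 1.98 with all libraries (exact permutation p = 0.20) and by 0.45 without knockout library 2, and SLC16A3/SLC16A1 by 2.02 (exact permutation p = 0.30) and 0.19. With sums of the stranded columns, where knockout library 2 held 37 in place of 4 reads of SLC16A1, the SLC16A3/SLC16A1 difference was 1.21 with all libraries (exact permutation p = 0.30). EPAS1/HIF1A differed by 0.47 with all libraries (exact permutation p = 0.40) and by 0.93 without knockout library 2, where both remaining knockout libraries lay above the vector range. PDK3/PDK1 and BNIP3L/BNIP3 differed by 0.04 and -0.06, and both signs turned without knockout library 2 (-0.13 and 0.05).

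**Figure D5:**
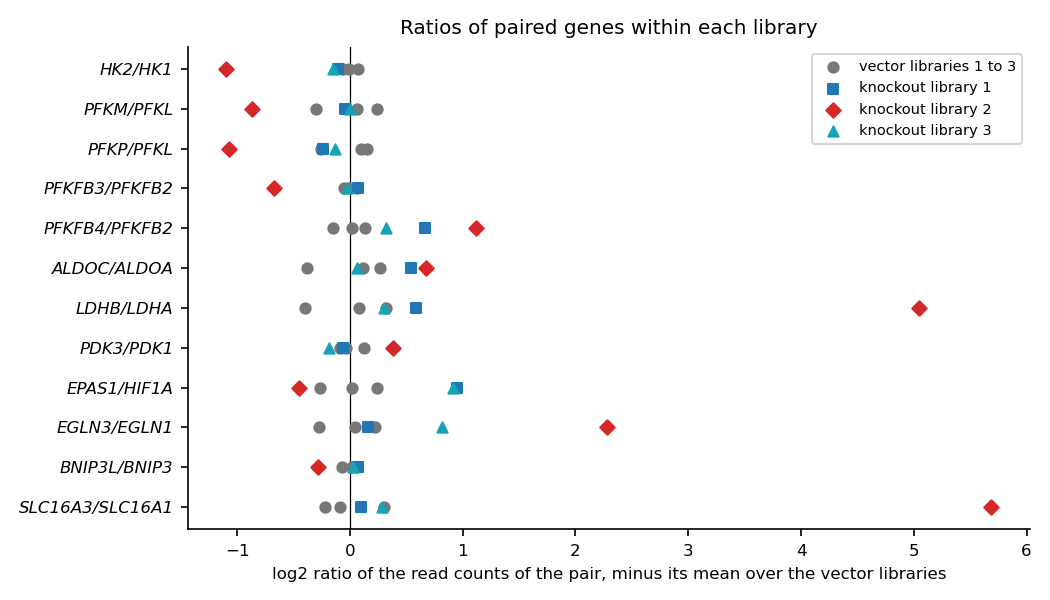
Log2 ratio of the read counts of 12 gene pairs in each library, minus the mean of the vector libraries. Only HK2/HK1 and PFKFB4/PFKFB2 separate all 3 knockout from all 3 vector libraries, and knockout library 2 lies about 5 log2 units out for LDHB/LDHA and further for SLC16A3/SLC16A1.

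The surrounding pathways were read in the same way. With all 6 libraries no gene of the 5 lists described here passed. The counts without knockout library 2 stand against the 10.2% of all genes that rose and the 8.88% that fell. Without knockout library 2, 2 of 8 other glycolysis isozymes rose (25.0%) and none fell (median 0.10). The neuronal enolase ENO2 rose by 1.43 ± 0.29 (edgeR test, adjusted p = 0.00178), from 0.972 to 1.76 CPM in vector libraries to 3.92, 6.17 and 4.14 CPM in knockout libraries. The kinase PDK2 rose by 0.51 ± 0.11 (edgeR test, adjusted p = 0.00397), opposite in sign to PDK1 and PDK3, with 2.09 times as many reads in the stranded sums as unstranded. Of 11 other regulators of HIF, 3 rose (27.3%) and 1 fell (9.09%, median 0.19). Those that rose were ELOB at 0.55 ± 0.07 (edgeR test, adjusted p = 2.06e-05), VHL at 0.43 ± 0.08 (0.000881, with 1.78 times as many reads in the stranded sums) and ELOC at 0.27 ± 0.07 (0.00757), parts of the ubiquitin ligase that destroys hydroxylated HIF. Of the other ligase subunits listed, RBX1 had 0.19 ± 0.07 (edgeR test, adjusted p = 0.0674) and CUL2, lower in every knockout library, had -0.24 ± 0.10 (edgeR test, adjusted p = 0.0965). ELOB stood at 159, 180 and 154 CPM in vector and at 239, 810 and 244 CPM in knockout libraries. CITED2, which competes with HIF for its coactivator, fell by 0.71 ± 0.11 (edgeR test, adjusted p = 0.000202), from 36.8 to 48.0 CPM in vector libraries to 16.5 to 27.2 CPM in knockout libraries.

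Of 27 other hypoxia targets tested, 3 rose (11.1%, where 10.2% of all genes did) and 4 fell (14.8%, where 8.88% did), with a median of 0.05. DDIT4, an inhibitor of mTORC1 signalling, stood at 160, 150 and 164 CPM in vector and at 307, 249 and 307 CPM in knockout libraries. It rose by 0.95 ± 0.06 without knockout library 2 (edgeR test, adjusted p = 6.09e-09) and had 0.87 ± 0.14 with all libraries (edgeR test, adjusted p = 0.0535). STC2, a secreted glycoprotein, rose by 0.37 ± 0.08 (edgeR test, adjusted p = 0.00211). NDRG1 fell by 0.63 ± 0.09 (edgeR test, adjusted p = 7.26e-05), from 71.9 to 82.6 CPM in vector libraries to 54.9, 13.3 and 46.1 CPM in the knockout. The histone demethylase KDM4B fell by 0.41 ± 0.07 (edgeR test, adjusted p = 0.000315). Targets of the list passed in both directions.

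Of 30 genes of pyruvate entry and the TCA cycle, 7 rose (23.3%, where 10.2% of all genes did) and 8 fell (26.7%, where 8.88% did), with a median of -0.15. MDH2 and MDH1, the mitochondrial and cytosolic malate dehydrogenases, rose by 0.37 ± 0.06 (edgeR test, adjusted p = 0.000387) and 0.33 ± 0.07 (0.00211). DLAT, a subunit of the pyruvate dehydrogenase complex, fell by 0.54 ± 0.10 (edgeR test, adjusted p = 0.000918), from 78.8 to 105 CPM in vector libraries to 69.1, 29.7 and 61.4 CPM in the knockout. MPC2, a subunit of the mitochondrial pyruvate carrier with 2.02 times as many reads in the stranded sums, fell by 0.30 ± 0.06 (edgeR test, adjusted p = 0.00216), but knockout library 2 stood at 534 CPM, above the vector libraries at 340 to 355 CPM, and the fold change with all libraries was 0.08 ± 0.27 (edgeR test, adjusted p = 0.850). Of 15 genes of the pentose phosphate and glycogen pathways 4 rose (26.7%, where 10.2% of all genes did) and none fell, with a median of 0.15. PYGL, the liver glycogen phosphorylase, was steady within groups, at 15.2 to 16.1 CPM in vector and 23.1 to 23.7 CPM in knockout libraries, and rose by 0.58 ± 0.11 (edgeR test, adjusted p = 0.00111). PGM1, which links glycogen to glycolysis, rose by 0.85 ± 0.16 (edgeR test, adjusted p = 0.000843). PGLS and TKT of the pentose phosphate pathway rose by 0.31 ± 0.09 (edgeR test, adjusted p = 0.0271) and 0.21 ± 0.07 (0.0470).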

How the data were processed

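Bulk RNA sequencing of 6 C4-2 libraries was analysed, grouped by their titles. Each table holds read counts per gene as the authors deposited them, not normalised, with 1 unstranded and 2 stranded columns. FastQC, STAR and GRCh38 are named per the submitters' processing notes. Versions and gene annotation were not given in the sources used here. The stranded columns summed to ratios of 1.02 to 1.04, so the unstranded counts were used, which leave out reads in several genes or places.

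Counts were tested on all genes with edgeR 4.0.16 in R 4.3.3 (filterByExpr, TMM, robust quasi-likelihood fit, Benjamini-Hochberg adjustment, threshold 0.05). SE is the log2 fold change over the root of F. CPM are TMM-scaled, with 6-library factors. Exon lengths and overlaps come from GENCODE 29 and promoters from RefSeq; exon lengths understate genes with many isoforms. DESeq2 1.42.0 and limma 3.58.1 were alternatives. The code was tested on simulated data with 200 genes changed 2-fold or 4-fold. With all 6 libraries 29% of the 2-fold and 84% of the 4-fold changes were recovered. Without knockout library 2 the shares were 68% and 87%. No libraries agreed within sampling noise.

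The members and lists were chosen with earlier results of these data known. Values are given for members called in either fit, the 4 largest fold changes of each fit and the highest level per kilobase of each role, and up to 4 called genes of each other list. Other members are described by range, or by their library values where groups did not overlap. A further marker list is not reported here.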

Additional observations from a re-analysis of the deposited data

How the results depend on the processing

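With all 6 libraries, the counts of 0 members higher and 0 lower moved only when knockout library 2 was left out (1 and 5, leave-out range 0 to 1 and 0 to 5). The other alternatives run on that fit, including DESeq2, limma-voom and a replicate block, gave 0 and 0. Over all genes their shares reached 3.95% higher and 2.26% lower, both with DESeq2. Without knockout library 2, the 1 member higher became 0 with DESeq2's size factors in edgeR, 2 with sums of the stranded columns or a length and GC offset, and 3 with upper quartile factors, no low-count filter, DESeq2 or limma-voom. It was also 3 with library totals and no TMM factors, an alternative added after the data were seen, which moved the median of all genes from 0.00 to -0.18 and that of members from -0.12 to -0.26 with all 6 libraries. Over all genes these alternatives called 5.56% (no low-count filter) to 11.2% (upper quartile factors) higher. The 5 members lower became 4 with upper quartile factors, no low-count filter or the length and GC offset. They became 6 with sums of the stranded columns and stayed at 5 in the others. Over all genes these alternatives called 4.28% (no low-count filter) to 9.99% (length and GC offset) lower. Leaving out vector library 1 or 3 as well gave 0 higher and 2 lower. Of all genes 7.70% and 7.66% were then higher and 5.84% and 5.76% lower. Leaving out vector library 2 gave 4 higher (12.5%) and 9 lower (28.1%), against 14.6% and 14.7% of all genes. In fits without knockout library 1 or 3, the lone knockout library was assumed to vary like the other libraries. The main fits did not pair libraries by replicate number. Deviations from the group mean correlated at 0.135, 0.194 and 0.0841 between vector and knockout libraries of the same number. All 6 of 6 libraries correlated best with their own number, a hint from the data only. With the number as a replicate block the 5-library counts were 6 higher and 9 lower, and 7 and 8 with the block and the length and GC offset. All genes moved too: with the block 16.7% were higher and 17.3% lower, against 18.8% and 28.1% of members, and with the offset 14.3% and 14.7%, against 21.9% and 25.0%. The log2 ratio differences of PFKFB3/PFKFB2 (-0.21), PDK3/PDK1 (0.04) and BNIP3L/BNIP3 (-0.06) reversed without knockout library 2, with leave-out ranges of -0.347 to 0.0255, -0.126 to 0.158 and -0.126 to 0.0512. The causes of these moves were not tested. CA9, ADM and SLC2A3 were too shallow to test.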
